A study of Caenorhabditis elegans with 32 samples.

Results

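The 10 genes described here drive the cell cycle of dividing germ cells and embryos in the nematode Caenorhabditis elegans: the subunits mcm-2, mcm-3, mcm-4, mcm-5, mcm-6 and mcm-7 of the MCM replicative helicase, the sliding clamp gene pcn-1, the mitotic kinase gene cdk-1, and the B-type cyclin genes cyb-1 and cyb-3. They were chosen by name, as known cell cycle genes, from the 46926 genes of the deposited count table, and all 10 passed the filter on low counts in every comparison. The files list them as WBGene00003154 (mcm-2), WBGene00003155 (mcm-3), WBGene00003156 (mcm-4), WBGene00003157 (mcm-5), WBGene00003158 (mcm-6), WBGene00003159 (mcm-7), WBGene00003955 (pcn-1), WBGene00000405 (cdk-1), WBGene00000865 (cyb-1) and WBGene00000868 (cyb-3).

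The MCM proteins form a ring of 6 different subunits that is loaded onto DNA at replication origins, before S phase, and then unwinds DNA at the moving fork. The PCNA ring encoded by pcn-1 holds the polymerases on the template. CDK-1 bound to a B-type cyclin drives entry into mitosis and the meiotic divisions. In an adult hermaphrodite most somatic cells no longer divide, so messages of this machinery come largely from the germ line, which also loads them into oocytes, and from embryos held in the uterus.

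The study asked what LOTR-1 contributes to mRNA levels and translation. LOTR-1 carries a LOTUS and a Tudor domain and resides in germ granules. The mutant strains were delta-LOTR-1 (DUP207, allele sam117, the whole gene deleted in frame), delta-LOTUS (DUP217, allele sam113, the LOTUS domain deleted) and delta-Tudor (DUP185, allele sam102, the Tudor domain deleted). The control, called wild type (WT) in the labels, was DUP167 with allele sam85, in which lotr-1 carries a 3xFLAG::GFP tag at its N terminus. The genotype labels of all 4 strains list the tag, so no strain with an untagged gene entered a comparison, and each genotype is 1 strain. All animals were synchronized hermaphrodites on day 1 of adulthood, lysed whole as populations. Every lysate was divided: polyadenylated mRNA was sequenced from the polysomes of a sucrose gradient and from the total lysate, with 4 replicates a strain and fraction, 32 libraries in all.

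Library totals were 26987460 to 36156397 counts in the polysome fraction and 31447844 to 40197831 counts in the lysates. Levels are given in CPM, a gene's counts relative to the library total, on library sizes scaled by the trimmed mean of M values (TMM). On polysomes lotr-1 itself had 112, 125, 63.3 and 41.6 CPM in delta-LOTR-1 animals at replicate numbers 1 to 4, against 111, 103, 55.8 and 40.6 CPM in WT animals. In the lysates it had 78.4, 80.8, 43.0 and 28.1 CPM in delta-LOTR-1 animals and 305, 329, 203 and 107 CPM in WT animals, so lotr-1 separated the deletion strain from WT at every number in the lysates and not on polysomes. Gene counts do not show which part of lotr-1 the reads came from, so the polysome libraries labelled delta-LOTR-1 could not be checked by this gene. Counts in whole animals cannot tell fewer cells of a type from less mRNA in each cell. The replicates are labelled biological, but no label names separate cultures, and what the p-values gauge is therefore only how far these samples spread.

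Across the 4 strains the 10 mRNAs stood at nearly the same levels, while the replicate numbers that the strains share set them apart by several fold. All 10 had counts in every library. The B-type cyclin message cyb-3 had the widest spread over libraries. At replicate numbers 1 to 4, its polysome levels were 471, 536, 134 and 68.7 CPM in delta-LOTR-1, 514, 599, 104 and 99.5 CPM in delta-LOTUS, 537, 562, 116 and 76.3 CPM in delta-Tudor, and 551, 567, 99.3 and 70.0 CPM in WT. In the lysates cyb-3 had 1021, 1168, 431 and 148 CPM in delta-LOTR-1, 1191, 1225, 423 and 223 CPM in delta-LOTUS, 1198, 1244, 442 and 168 CPM in delta-Tudor, and 1253, 1227, 417 and 181 CPM in WT. In both fractions every library with number 1 or 2 lay above every library with number 3 or 4, whatever its strain.

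The other cyclin, cyb-1, and the kinase message cdk-1 varied less. On polysomes cyb-1 ranged from 79.3 to 302 CPM and cdk-1 from 53.1 to 202 CPM over the 16 libraries. In the lysates cyb-1 had 464, 525, 306 and 197 CPM in delta-LOTR-1, 552, 557, 306 and 259 CPM in delta-LOTUS, 534, 567, 312 and 223 CPM in delta-Tudor, and 557, 565, 308 and 232 CPM in WT. The lysate levels of cdk-1 were 222, 245, 129 and 73.7 CPM in delta-LOTR-1, 236, 232, 122 and 87.5 CPM in delta-LOTUS, 238, 246, 130.2 and 78.4 CPM in delta-Tudor, and 251, 248, 125 and 92.5 CPM in WT. The strains overlapped throughout for both genes, and numbers 1 and 2 again stood above 3 and 4.

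Among the helicase subunits, mcm-4 (the gene also known as lin-6) had polysome levels of 209.6, 164, 88.4 and 44.9 CPM in delta-LOTR-1, 232, 221, 66.4 and 65.9 CPM in delta-LOTUS, 224, 263, 87.3 and 49.5 CPM in delta-Tudor, and 231, 212, 76.9 and 63.4 CPM in WT. There the order of the strains changed from number to number. In the lysates mcm-4 had 284, 343, 158 and 95.8 CPM in delta-LOTR-1, 313, 329, 158 and 112 CPM in delta-LOTUS, 315, 321, 168 and 92.5 CPM in delta-Tudor, and 344, 349.8, 173 and 118 CPM in WT. At every replicate number the WT lysate held the highest value of mcm-4, although the ranges of the strains overlapped almost completely.

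The other subunits covered similar ranges on polysomes, 53.9 to 299 CPM for mcm-2, 28.6 to 235 CPM for mcm-3, 21.4 to 156 CPM for mcm-5, 25.6 to 215 CPM for mcm-6 and 35.3 to 259 CPM for mcm-7. In the lysates the ranges were 117 to 458 CPM for mcm-2, 76.0 to 378 CPM for mcm-3, 77.0 to 304 CPM for mcm-5, 88.8 to 366 CPM for mcm-6 and 113 to 588 CPM for mcm-7. Levels of different genes are not ranked here, since CPM is not corrected for transcript length.

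The clamp message pcn-1 had polysome levels of 497, 490.3, 172 and 93.0 CPM in delta-LOTR-1, 492, 500.0, 135 and 100.8 CPM in delta-LOTUS, 494, 516, 169 and 84.8 CPM in delta-Tudor, and 525, 513, 148 and 111 CPM in WT. In the lysates it had 521, 559, 265 and 139.8 CPM in delta-LOTR-1, 530.2, 558, 248 and 172 CPM in delta-LOTUS, 539, 552, 262 and 150.1 CPM in delta-Tudor, and 609, 581, 265 and 208 CPM in WT. At numbers 1 and 2 the polysome level of pcn-1 came closer to its lysate level than that of any other of the 10 genes.

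**Figure D1:**
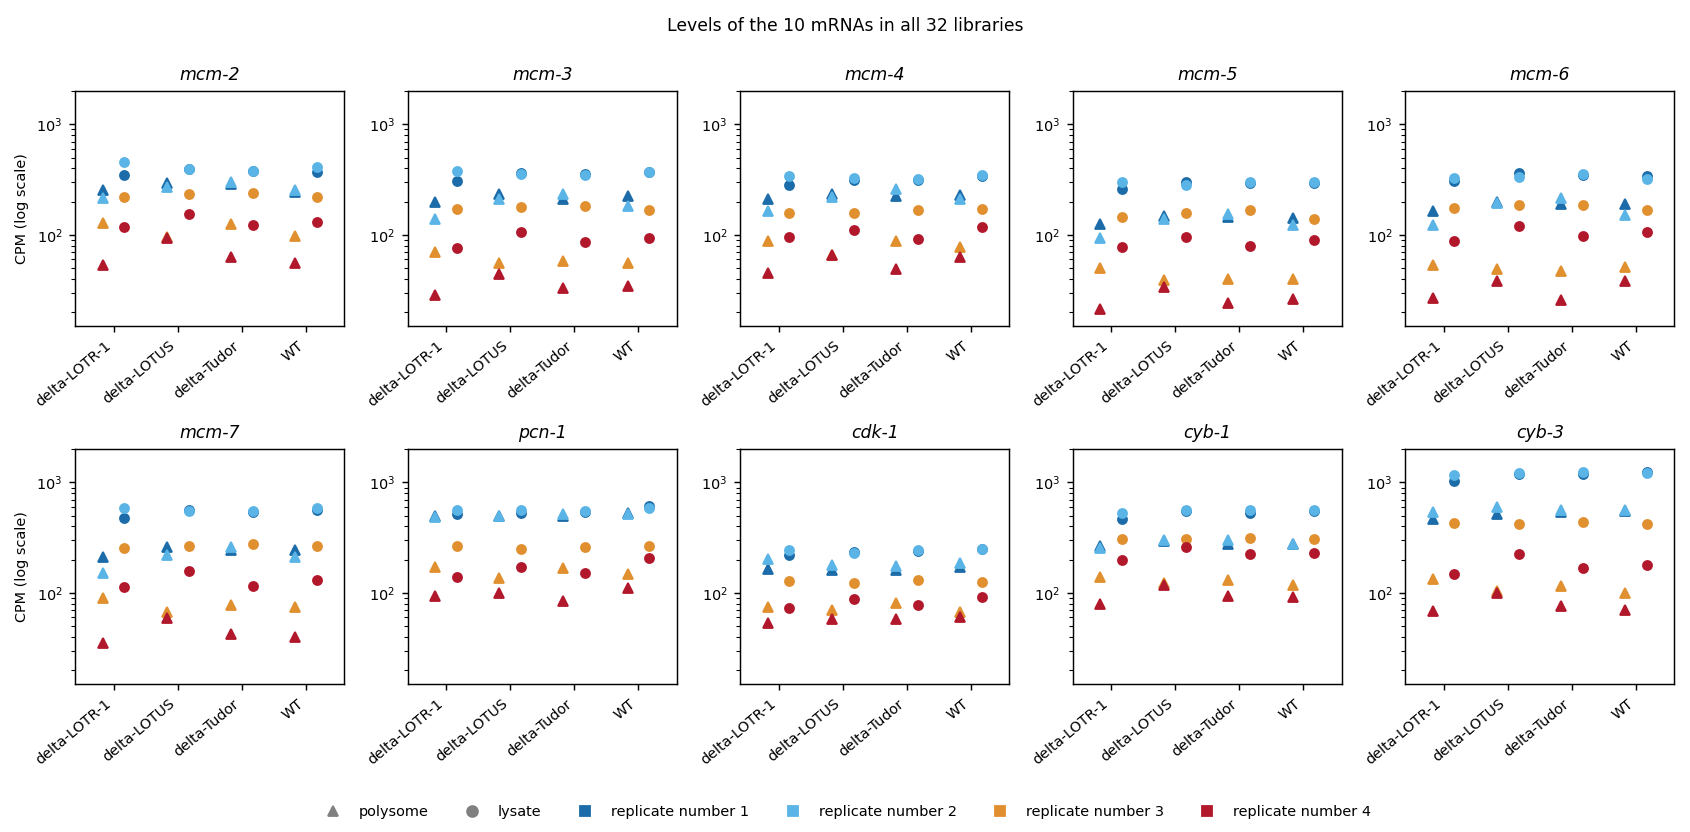
Level of each of the 10 mRNAs in CPM (log axis) in all 32 libraries, by strain, with polysome libraries as triangles left of the lysate libraries as circles and colour giving the replicate number. Within a strain the 4 numbers spread by several fold, cyb-3 in WT lysates between 181 and 1253 CPM, while libraries of 1 number sit together across strains.

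No member passed the test between a mutant and WT in either fraction. By the quasi-likelihood test of edgeR, with Benjamini-Hochberg adjusted p under 0.05 as the call, 0 of the 10 were called on the polysomes of delta-LOTR-1 (0.221% of all genes tested were called), delta-LOTUS (0.0585%) and delta-Tudor (0.0975%). In the lysates 0 of 10 were called as well, with 0.27%, 0.144% and 0.0753% of all genes called for delta-LOTR-1, delta-LOTUS and delta-Tudor. None of the 10 had an unadjusted p under 0.05 in these comparisons, and DESeq2 called 0 of 10 in each. With so few genes called over the whole table, 0 of 10 is close to the background. Averaged over the 4 lysates, mcm-4 stood at 220.2 ± 113 CPM in delta-LOTR-1, 228 ± 109 CPM in delta-LOTUS, 224 ± 113 CPM in delta-Tudor and 246 ± 118.5 CPM in WT (SD, n = 4 each), so the spread between replicates was several times the distance between strains.

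Because same-numbered libraries of different strains varied together, entering the number as a block (the replicate block) gave far narrower intervals, and there too 0 of 10 were called. Under the block the share of all genes called was 0.631%, 1.05% and 0.228% on the polysomes of delta-LOTR-1, delta-LOTUS and delta-Tudor, and 7.82%, 20.6% and 13.6% in their lysates. Unadjusted p-values under 0.05 were seen for 0 members on polysomes and for 3, 1 and 2 in those lysates. Over all genes tested they numbered 1144, 2426 and 1148 of 15378 on polysomes, and 3765, 5237 and 4465 of 15939 in the lysates. The counts of members are thus close to the background or below it. The nearest to a call were mcm-4 and pcn-1, both at lower estimates in the mutants. In delta-LOTR-1 lysates mcm-4 had a log2 change of -0.20 (95% interval -0.35 to -0.06, edgeR adjusted p = 0.0868), in delta-LOTUS lysates -0.12 (adjusted p = 0.225) and in delta-Tudor lysates -0.20 (adjusted p = 0.0711). The log2 change of pcn-1 was -0.23 in delta-LOTR-1 (adjusted p = 0.105), -0.18 in delta-LOTUS (0.151) and -0.23 in delta-Tudor (0.089), with standard errors of 0.08.

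Compared number by number with the WT lysate, mcm-4 was lower in 4 of 4 lysates of each mutant, and pcn-1 in 3 of 4 delta-LOTR-1, 4 of 4 delta-LOTUS and 4 of 4 delta-Tudor lysates. Both genes were named for their p-values in these same lysates, so these signs are no further support. Among the other members, cyb-1 was lower in 4 of 4 delta-LOTR-1 lysates and cdk-1 in 4 of 4 delta-LOTUS lysates. In contrast mcm-6 was higher in 4 of 4 delta-LOTUS lysates. How many of all genes had 1 sign at all 4 numbers was not counted. The pcn-1 differences were largest at number 4, with log2 values of -0.57 in delta-LOTR-1, -0.28 in delta-LOTUS and -0.47 in delta-Tudor. The 3 comparisons share the WT libraries, so these values are not independent of each other. The intervals of the blocked fit bound what could have been missed in the lysates: for mcm-2, mcm-3, mcm-5, mcm-6 and mcm-7 they ran from -0.33 to 0.27 on the log2 scale over the 3 mutants. For cyb-3 they ran from -0.37 to 0.25 and for cdk-1 from -0.29 to 0.06. On polysomes the bounds were wider, with the lowest at -0.57 for mcm-6 in delta-LOTR-1 and the highest at 0.61 for mcm-2 in delta-LOTUS.

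The median log2 change of the 10 members under the block was -0.078 on delta-LOTR-1 polysomes, 0.14 on delta-LOTUS polysomes and 0.065 on delta-Tudor polysomes, beside medians of 0.011, 0.012 and 0.013 over all genes tested. In the lysates the members' medians were -0.14, 0.032 and -0.068, beside 0.005, -0.011 and -0.0045 over all genes. Of the 40 single differences of a mutant polysome library from the WT library of its number, 28 were below 0 in delta-LOTR-1, 14 in delta-LOTUS and 15 in delta-Tudor. In the lysates 29 of 40 were below 0 in delta-LOTR-1, 24 of 40 in delta-LOTUS and 26 of 40 in delta-Tudor. Each 40 holds 10 genes that shift together within a library, so the 40 values are not replicates. On delta-LOTR-1 polysomes every member was above 0 at number 3, from 0.08 for mcm-6 to 0.43 for cyb-3. The share of all genes below 0 was not computed, so these counts are descriptions only.

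A separate input gave the only calls between a mutant and WT. With limma on the authors' replicate-adjusted values, mcm-6 was higher in delta-LOTUS lysates (log2 0.21, adjusted p = 0.0131) and in delta-Tudor lysates (0.18, adjusted p = 0.0392), and mcm-2 was higher on delta-LOTUS polysomes (0.39, adjusted p = 0.0487). In the blocked edgeR fit the same values were 0.11, 0.01 and 0.29, none of them called. Limma called 3696 of all genes in delta-LOTUS lysates, 3208 in delta-Tudor lysates and 839 on delta-LOTUS polysomes, higher or lower. The number of genes it tested is not given here. With that many calls over all genes, single calls of mcm-6 and mcm-2 cannot be called particular to these genes.

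**Figure D2:**
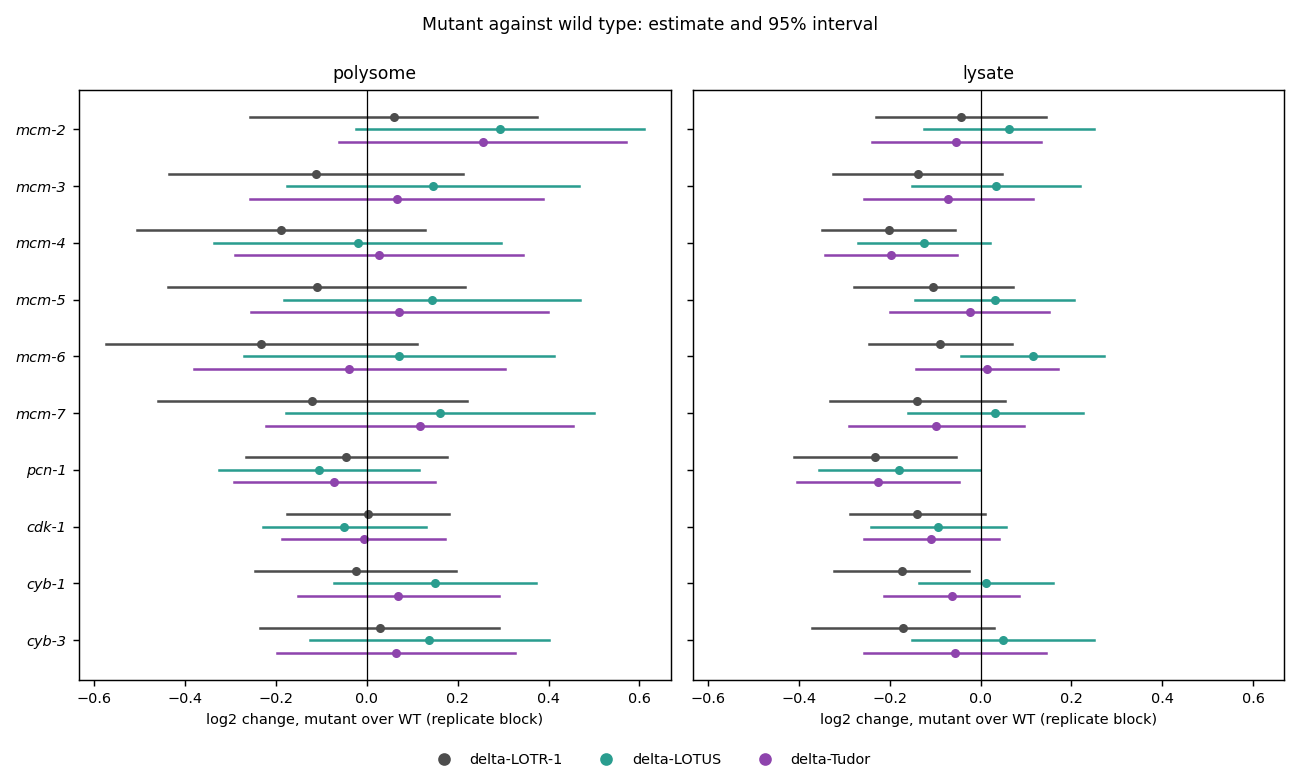
Log2 change of each mRNA in the 3 mutants over WT, polysome fraction at left and lysate at right, as the estimate (point) with its 95% interval (line) from the edgeR fit with the replicate block. Estimates lie between -0.23 and 0.29, and the lysate intervals of mcm-4 and pcn-1 lie farthest below 0.

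The mutants were also set against each other. No member was called between delta-LOTUS and delta-LOTR-1 (0.137% of genes called on polysomes, 0.176% in lysates), between delta-Tudor and delta-LOTR-1 (0.104% and 0.0941%) or between delta-LOTUS and delta-Tudor (0.0715% and 0.119%), and none had an unadjusted p under 0.05. With the replicate block 0 of 10 were called again, where 0.481%, 0.208% and 0.306% of genes were called on polysomes and 1.36%, 0.527% and 0.847% in the lysates. In the blocked lysate fit of delta-LOTUS against delta-LOTR-1 there were 3 members with an unadjusted p under 0.05, all estimated higher in delta-LOTUS: cyb-3 by 0.22 on the log2 scale (edgeR adjusted p = 0.219), mcm-6 by 0.20 (0.168) and cyb-1 by 0.19 (0.174). In that lysate fit 3161 of all 15939 genes tested had an unadjusted p under 0.05, so 3 of 10 is near the background. DESeq2 called 0 of 10 in all 6 comparisons between mutants.

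Genes that work beside the 10 did pass in places under the replicate block. In delta-LOTUS lysates 7 of 9 measured condensin and cohesin genes rose, 6 of 19 kinetochore and spindle checkpoint genes rose, 6 of 23 other cyclin and cell cycle kinase genes rose, and 5 of 18 origin licensing and firing genes rose with 1 lower, beside 9.47% of all genes called higher and 11.1% lower. They included capg-1, a condensin subunit (log2 0.65 ± 0.09 SE, adjusted p = 6.14e-04), knl-1, which anchors the kinetochore (0.53 ± 0.08, adjusted p = 0.00126), and cdt-1, which loads the MCM ring onto origins (0.66 ± 0.11, adjusted p = 0.00145), by edgeR. The anaphase-promoting complex had 3 of 13 higher, among them emb-30 (0.53, adjusted p = 0.00277), and the replication fork list 1 of 20 higher and 1 lower.

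In delta-Tudor lysates 4 of 9 condensin and cohesin genes, 5 of 19 kinetochore genes and 3 of 18 origin genes rose, with 2 kinetochore, 2 origin and 2 of 20 fork genes lower, beside 5.7% of all genes higher and 7.89% lower. The other cyclin and kinase list had 1 of 23 higher and the anaphase-promoting complex 2 of 13. The values of cdt-1 (0.50, edgeR adjusted p = 0.00927) and capg-1 (0.54, adjusted p = 0.00264) were close to those in delta-LOTUS, and the clamp loader subunit rfc-2 was lower in delta-Tudor (-0.31, adjusted p = 0.0256) and in delta-LOTUS (-0.25, adjusted p = 0.046). In delta-LOTR-1 lysates 2.46% of all genes were called higher and 5.36% lower. There 0 of 9 condensin and cohesin, 0 of 20 fork and 0 of 23 other cyclin and kinase genes were called. In the other lists cdt-1 also rose (0.39, edgeR adjusted p = 0.0453). Lower were 3 origin genes with orc-3 in the lead (-0.49, adjusted p = 0.00451), 3 of 13 anaphase-promoting complex genes and 2 of 19 kinetochore genes. None of these genes passed without the block (adjusted p = 1 for each named gene), and on polysomes no gene of the 6 lists passed in either fit.

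These list counts depended on which replicate number was left out. Fits without 1 number hold fewer libraries, and the share of all genes called in them is not given here. Neither falls nor rises in the counts can therefore be called particular to these lists. Without replicate 1, the genes higher in delta-LOTUS were 2 of 9 condensin and cohesin, 5 of 19 kinetochore, 1 of 23 other cyclin and kinase and 2 of 18 origin genes, and without replicate 3 they were 2, 3, 1 and 1. The counts fell less without the other numbers, at 6, 6, 8 and 5 without replicate 2 and 6, 7, 3 and 5 without replicate 4. In delta-Tudor the genes higher without replicates 1, 2, 3 and 4 in turn were 1, 1, 0 and 6 of 9 condensin and cohesin genes, 1, 2, 0 and 6 of 19 kinetochore genes, and 1, 1, 0 and 6 of 18 origin genes. The 2 kinetochore, 2 origin and 2 fork genes lower in delta-Tudor were 0 of each list without replicate 1, 2 or 3 and with the scaling of DESeq2 inside edgeR (relative log expression, RLE) under the block. The call of rfc-2 was thus lost there, and likewise in delta-LOTUS, where 0 fork and 0 origin genes were lower without replicate 1, 2 or 3 or with RLE scaling. The genes higher in delta-LOTUS with RLE scaling were 7 of 9 condensin and cohesin, 6 of 19 kinetochore, 6 of 23 other cyclin and kinase and 5 of 18 origin genes. In delta-LOTR-1 the call of cdt-1 was lost whichever number was left out and with RLE scaling, with 0 of 18 origin genes higher in each case. No more than 2 origin genes and 1 gene each of the anaphase-promoting complex and kinetochore lists were lower in delta-LOTR-1 once any 1 number was left out.

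Replicate number, not strain, carried the variation of the 10 mRNAs. It was called for 10 of 10 on polysomes, where 78.5% of all genes were called, and for 10 of 10 in the lysates, where 87.7% were, so the count follows the background. Number accounted for 94.3% to 99% of the variance of log2 CPM of a member on polysomes and 97.2% to 98.9% in the lysates, with medians over all genes of 80% and 87.1%. Strain accounted for 0.372% (mcm-2) to 1.65% (cyb-1) in the lysates.

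The size of the difference between numbers varied among the genes. Folds between numbers were taken from means of log2 (CPM + 0.1) over the strains, so they can differ slightly from ratios of the mean CPM. The mean lysate level of cyb-3 was 1166 ± 100.6, 1216 ± 33.3, 428 ± 10.8 and 179.9 ± 31.7 CPM at numbers 1 to 4 (SD over the 4 strains), 6.83-fold between the highest and the lowest number. For cyb-1, the least variable of the 10, the levels were 527 ± 42.9, 553 ± 19.6, 308 ± 2.98 and 228 ± 25.8 CPM, 2.44-fold. The 2 cyclins, partners of the same kinase, thus lay at opposite ends of the 10. The kinase message cdk-1 spanned 2.93-fold, pcn-1 3.4-fold, and the helicase subunits between 3.14-fold (mcm-2) and 4.46-fold (mcm-7). On polysomes the spans were wider for all 10, from 2.99-fold (cyb-1) to 7.27-fold (cyb-3). Among all genes tested these spans lay between the 71.3 and 85.2 percentiles on polysomes and between the 56.2 and 83.4 percentiles in the lysates. For all 10 genes, in both fractions, the libraries of numbers 1 and 2 stood above those of numbers 3 and 4 without overlap. Numbers 3 and 4 were apart in 9 of 10 genes on polysomes and 10 of 10 in the lysates, while numbers 1 and 2 overlapped in 9 genes on polysomes and 10 in the lysates. How many of all genes were separated in these ways was not counted. As 78.5% of all genes on polysomes and 87.7% in the lysates differed by number, the separation cannot be called particular to the 10.

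Markers of other stages and cell types moved with the numbers, where 87.7% of all genes tested differed by number in the lysates. The 10 sperm markers summed to 31.8 to 62.0, 20.8 to 52.8, 282 to 335 and 427 to 484 CPM in the lysates of numbers 1 to 4, and all 10 of them differed by number. The 12 oocyte markers ran the other way, at 8250.0 to 9888, 9303 to 9805, 4443 to 5039 and 1878 to 2940.5 CPM, and 12 of 12 differed. The 12 embryo markers summed to 27.3 to 34.4, 30.8 to 37.97, 12.04 to 13.3 and 11.2 to 14.8 CPM. Of the 10 embryo markers tested, 9 differed, and pes-10, an early embryonic gene, had 3.82 to 5.10 CPM at number 1, 4.85 to 6.07 CPM at number 2 and 0.105 to 0.618 CPM at number 3, and no count in any of the 4 lysates of number 4. The 10 germ line markers, which differed in 10 of 10, summed to 2742 to 3223, 3034 to 3378, 2249.9 to 2435 and 1615 to 1844 CPM. Among them glh-1, a germ granule helicase, ran against the sum, with 394 to 468 and 374 to 556 CPM at numbers 1 and 2 and 546 to 677 and 538 to 650.4 CPM at numbers 3 and 4. Somatic lists moved too. The 6 body muscle markers summed to 2255 to 2349, 1910.5 to 2601, 3474 to 4260.2 and 3640.5 to 4621 CPM in the lysates of numbers 1 to 4, and 6 of 6 differed. The 10 intestine and yolk markers, of which 10 differed, summed to 46274 to 54341, 44463 to 64459, 36042 to 47269.9 and 14197 to 27716 CPM. The neuron markers summed to between 222 and 274 CPM in all 16 lysates, although 7 of 8 differed one by one, and 6 of 8 hypodermis and cuticle markers differed. Whether the stage or cell makeup of the populations had a part in the levels of the 10 genes was not tested.

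**Figure D3:**
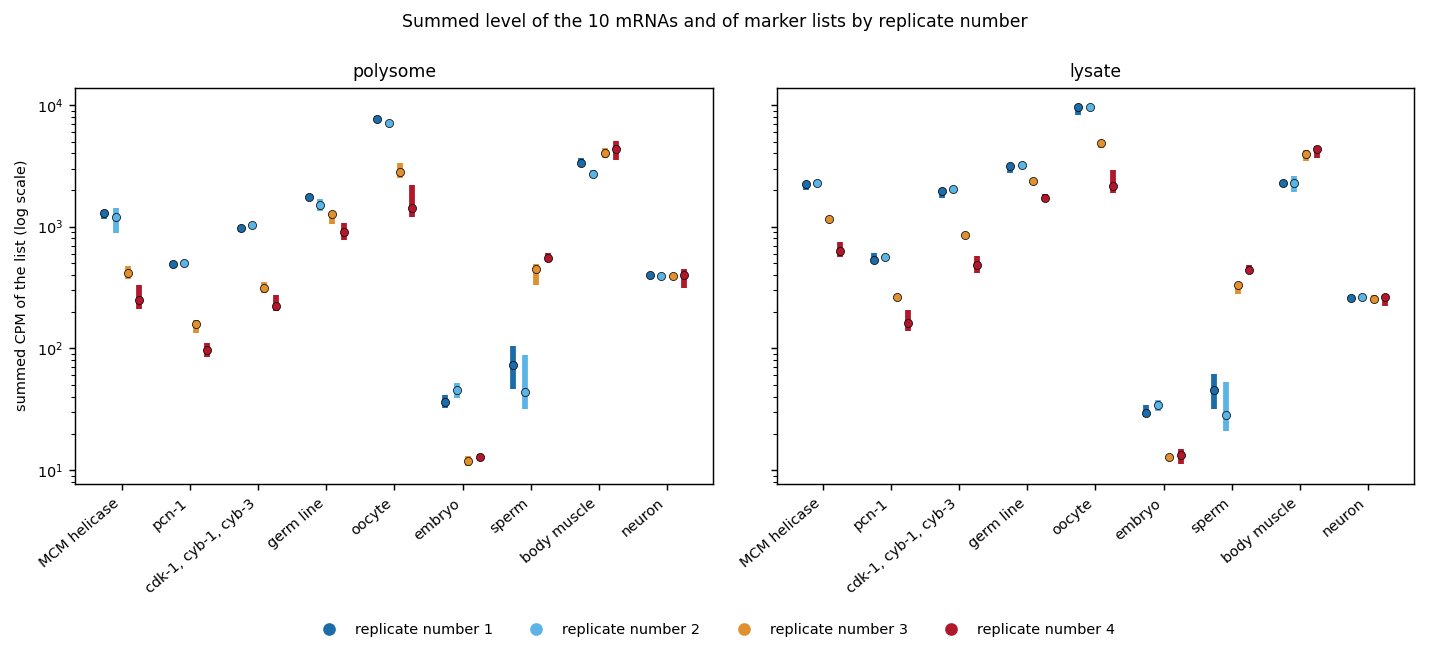
Summed level in CPM (log axis) of the helicase subunits, of pcn-1, of the kinase and cyclins and of marker lists, by replicate number, in the polysome fraction (left) and the lysates (right). Points are medians of the 4 strains and bars their full range. The cell cycle, oocyte and embryo sums are high at numbers 1 and 2, the sperm sum is high at numbers 3 and 4 (427 to 484 CPM in the lysates of number 4), and the neuron sum is about level.

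The wider cell cycle machinery differed by number as well: 18 of 18 tested origin licensing genes, 20 of 20 fork genes, 23 of 23 other cyclin and kinase genes, 13 of 13 anaphase-promoting complex genes, 19 of 19 kinetochore genes and 9 of 9 condensin and cohesin genes in the lysates. As 87.7% of all genes tested differed there, and all genes of the sperm and body muscle lists too, full lists are not particular to the cell cycle. The genes whose profiles over the 16 lysates were most like the mean of the 6 helicase subunits were rnr-1, the large subunit of ribonucleotide reductase, which makes DNA precursors (Pearson r = 0.9987), the kinase gene pig-1 (0.9984), bath-41, Y75B8A.25, the Wnt ligand gene mom-2 and edg-1 (0.9979). Nearest to the mean of cdk-1, cyb-1 and cyb-3 were C05C10.5 (0.999), the Pumilio-family gene puf-7, lin-53, which encodes a histone-binding protein, Y4C6B.1, icp-1, the INCENP subunit of the chromosomal passenger complex, and DY3.8 (0.9986). Among the 7537 genes with a mean of at least 10 CPM, 31% and 31.4% exceeded r = 0.95 with these profiles. The 16 lysates share 4 numbers, so these are descriptions of a largely common pattern.

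On polysomes all 10 mRNAs had a smaller share of the library than in the lysate they came from. The polysome ratio, the log2 of polysome CPM over lysate CPM of the same lysate, was below 0 in 16 of 16 lysates for each of the 10, which 21.3% of all genes showed. Its median was -1.12 over the members and 0.06 over all 16253 genes tested. The ratio is relative to the other mRNAs of each library and says nothing of absolute amounts.

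Within the helicase the subunits fell into levels. The ratio averaged -0.78 ± 0.29 for mcm-4 and -0.80 ± 0.32 for mcm-2 (SD, n = 16 lysates), that is 58.4% and 57.6% of the lysate level. The mean was -1.14 ± 0.40 for mcm-3, or 45.3%. For mcm-6 it was -1.35 ± 0.47, for mcm-5 -1.46 ± 0.40 and for mcm-7 -1.49 ± 0.30, or 39.1%, 36.3% and 35.5%. Thus proteins that join 1 ring in equal number were encoded by mRNAs whose polysome ratios differed by up to 0.72 on the log2 scale.

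The separation was seen within single lysates, and it does not depend on how the libraries were scaled, since all subunits share a library. In 16 of 16 lysates mcm-2 and mcm-4 held the highest 2 ratios of the 6. Of the 15 pairs of subunits, 12 differed in a two-sided exact sign-flip test over the 16 lysates with Benjamini-Hochberg adjustment over the pairs. The difference of mcm-4 minus mcm-7 was 0.72 ± 0.10 (SD) and that of mcm-2 minus mcm-5 was 0.67 ± 0.16, each above 0 in 16 of 16 lysates (exact p = 3.05e-05, the smallest that 16 lysates can give; adjusted p = 4.58e-05). The subunit mcm-3 lay between, below mcm-4 by a mean difference of -0.36 ± 0.15 and above mcm-5 by 0.32 ± 0.07 in 16 of 16 lysates (adjusted exact p = 4.58e-05 for both). Differences were not detected between mcm-2 and mcm-4 (-0.02 ± 0.10, adjusted exact p = 0.559), mcm-5 and mcm-7 (0.03 ± 0.17, adjusted exact p = 0.493) or mcm-6 and mcm-7 (0.14 ± 0.30, adjusted exact p = 0.0992).

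Lysates of 1 replicate number are alike, which makes the p-values over 16 lysates too small. Over the means of the 4 numbers the same exact test cannot go below p = 0.125, and all 12 pairs reached that value, with the same sign at 4 of 4 numbers. In budding yeast, Mcm2 and Mcm5 form the gate through which DNA enters the ring. The pair mcm-2 and mcm-5 was only 1 of the 12 of 15 pairs that differed, and a link of the ratios to places in the ring was not tested.

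**Figure D4:**
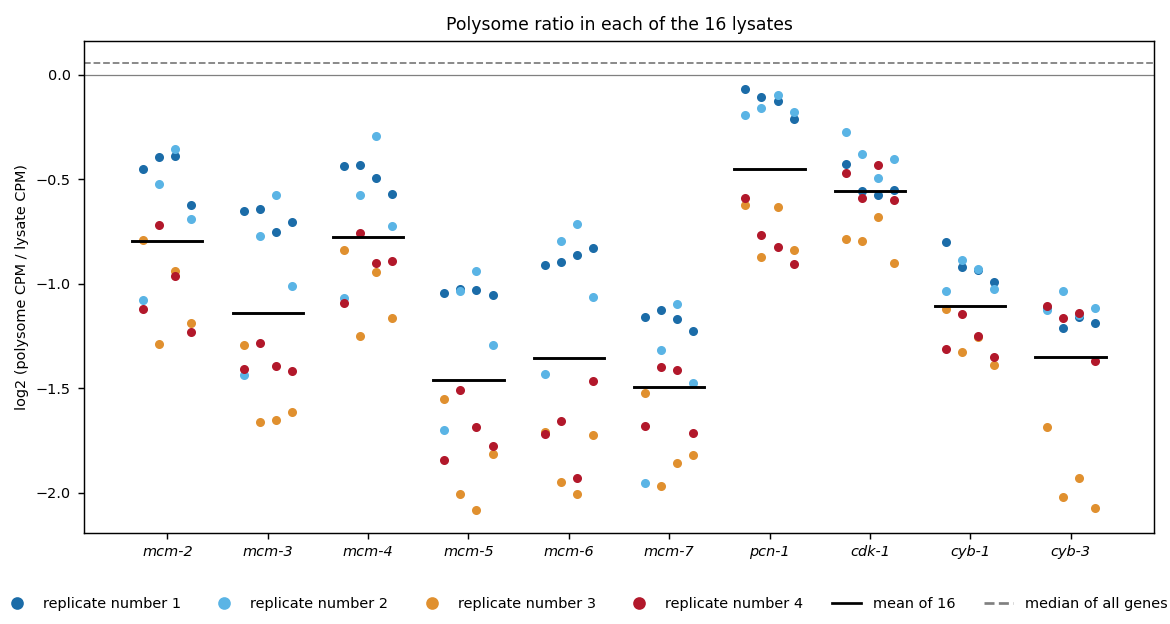
Polysome ratio (log2 of polysome CPM over lysate CPM) of each mRNA in the 16 lysates, coloured by replicate number, with the strains delta-LOTR-1, delta-LOTUS, delta-Tudor and WT from left to right within a gene, the mean as a black bar and the median of all genes as a dashed line. All points lie below 0, the helicase subunits mcm-2 and mcm-4 lie above the other subunits, and points of numbers 3 and 4 tend to lie lower.

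Outside the helicase, pcn-1 and cdk-1 had the highest ratios of the 10. The clamp message averaged -0.45 ± 0.33, or 73.2% of its lysate level, and the kinase message -0.56 ± 0.17, or 68%. The cyclins were lower, at -1.104 ± 0.19 for cyb-1 (46.5%) and -1.35 ± 0.36 for cyb-3 (39.3%). Among all genes the mean ratios of the 10 lay between the 5.54 percentile (mcm-7) and the 28 percentile (pcn-1).

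The kinase message was therefore better represented on polysomes than the messages of its cyclin partners. The ratio of cdk-1 exceeded that of cyb-1 by 0.55 ± 0.17 and that of cyb-3 by 0.79 ± 0.23, in 16 of 16 lysates each (SD, two-sided exact sign-flip p = 3.05e-05 for both, adjusted p = 4.58e-05 over 3 comparisons), and at 4 of 4 replicate numbers (exact p = 0.125 over the means of the numbers, the smallest possible). Between the cyclins the difference of cyb-1 minus cyb-3 was 0.24 ± 0.28, above 0 in 14 of 16 lysates (exact p = 0.00241). It was not the same at every number, with means of 0.26, 0.14, 0.65 and -0.07 at numbers 1 to 4, and over these 4 means the exact p was 0.25.

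Whether the lower polysome level passed a test across all genes depended on the pairing of the fractions. With edgeR and no block, 0 of 10 members were called in any strain, where 23.3%, 23.6%, 24% and 19.3% of all genes were called in delta-LOTR-1, delta-LOTUS, delta-Tudor and WT. Unadjusted p-values under 0.05 were found for 3, 1, 1 and 1 members, beside 5377, 5539, 5464 and 5017 of all 16253 genes tested. DESeq2 called 0 of 10 in each strain, beside 4031, 4086, 4051 and 3329 of all genes. With the lysate as a block, which compares each polysome library with its own lysate, 9 of 10 members were lower in delta-LOTR-1 (27.8% of all genes were called lower), 10 of 10 in delta-LOTUS (27.8%), 10 of 10 in delta-Tudor (28.5%) and 10 of 10 in WT (26.6%). The exception was pcn-1 in delta-LOTR-1 (-0.37, edgeR adjusted p = 0.0605). In WT the changes were -1.56 ± 0.15 for mcm-7 (SE, adjusted p = 1.14e-07), -1.43 ± 0.18 for cyb-3 (2.06e-06), -0.93 ± 0.16 for mcm-2 (5.57e-05), -0.61 ± 0.10 for cdk-1 (3.22e-05) and -0.53 ± 0.16 for pcn-1 (0.00953).

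The call of pcn-1 was the least stable: when each number was left out in turn, it passed in 1 of 4 fits in delta-LOTR-1 and in 2 of 4 in delta-LOTUS, delta-Tudor and WT, with changes in WT between -0.66 and -0.30 and an adjusted p of up to 0.246. In delta-Tudor 7 of 10 members were called without number 4, when pcn-1, mcm-2 and mcm-4 missed the threshold, and in the other strains leaving out any 1 number gave 9 or 10. Within numbers 1 and 2 alone the block called 10, 9, 9 and 10 members lower in delta-LOTR-1, delta-LOTUS, delta-Tudor and WT, and within numbers 3 and 4 alone 10 in each strain. Under the other scalings tried all 10 members stayed below 0 in all 4 strains.

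The ratio was not the same at every replicate number. For mcm-6 it averaged -0.87, -1.0015, -1.85 and -1.69 at numbers 1 to 4, and for pcn-1 -0.13, -0.16, -0.74 and -0.77. For cdk-1 the means were -0.53, -0.39, -0.79 and -0.52, so the value at number 4 was no lower than that at number 1. The cyclin cyb-3 stood out in another way, with -1.17, -1.104, -1.93 and -1.19, the low value at number 3 alone. In a test of fraction by number, chosen after the data were seen, edgeR called 9 of 10 members without the block (24.1% of all genes), mcm-7 being the exception (adjusted p = 0.0864), and 10 of 10 with it (41.2%). The count without the block was 3 without replicate 1, and it was 5 with RLE scaling.

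Other cell cycle genes also had low polysome ratios. Over all 16253 genes tested, 46.9% had a mean ratio below 0. The median was -1.06 over 18 origin licensing and firing genes, 17 of them below 0, -0.97 over 20 fork genes (19 below 0), -1.04 over 19 kinetochore genes (18 below 0) and -1.48 over 9 condensin and cohesin genes (9 below 0). Other cyclins and kinases had a median of -0.83 (18 of 23 below 0) and the anaphase-promoting complex -0.70 (11 of 13 below 0). Among the marker lists the medians were -0.80 for germ line genes and -1.35 for oocyte genes, and among the somatic lists -0.77 for intestine and yolk genes (6 of 10 below 0), -0.035 for body muscle genes, 0.44 for hypodermis and cuticle genes and 0.68 for neuron genes. They were 0.33 for sperm genes and 0.18 for embryo genes. The 6 helicase subunits, with a median of -1.25, and the kinase and cyclins, with -1.104, lay within the range of the cell cycle, germ line and oocyte lists.

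The polysome ratio was then compared between each mutant and WT, as the interaction of strain and fraction. None of the 10 members was called by edgeR in delta-LOTR-1, delta-LOTUS or delta-Tudor, where 0% of all genes were called in each, and none had an unadjusted p under 0.05. With the lysate block 0 of 10 were called again, beside 0.0554%, 0% and 0.00615% of all genes, and DESeq2 and limma also called 0 of 10. The blocked difference was 0.07 for mcm-2 in delta-LOTR-1, 0.20 in delta-LOTUS and 0.27 in delta-Tudor, with a 95% interval of -0.19 to 0.73 in the last. For cdk-1, the most tightly measured, the intervals were -0.16 to 0.41, -0.25 to 0.32 and -0.22 to 0.35. For mcm-6 in delta-LOTR-1 the interval reached from -0.85 to 0.50. With 4 lysates a strain, differences within these intervals are not excluded.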

How the data were processed

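Polyadenylated mRNA of 16 polysome fractions and their 16 lysates was measured by RNA sequencing. The deposited expected counts, estimated read counts per gene, come from Salmon per the submitters' processing notes, which also name DESeq2. Neither the genome build nor the annotation is named in the sources used here, nor whether counting used strand, so no coordinates are printed and overlapping antisense reads cannot be told apart. Of the positive values 15.3% were not whole, and all were rounded. A second deposited table holds replicate-adjusted values, treated as a score because how the authors adjusted them is not stated. It served as an alternative only. A sample description table was not used.

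The members and gene lists were chosen with earlier results of these data known. All 10 members are named throughout. From the other cell cycle lists, up to 3 genes called with the replicate block were eligible by size of change. The 6 genes most like each profile were taken by Pearson r over log2 (CPM + 0.1).

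Tests used edgeR 4.0.16 in R 4.3.3, with filterByExpr, TMM, quasi-likelihood F tests and Benjamini-Hochberg adjusted p under 0.05 as the call. Each fraction had 1 fit over its 16 libraries with strain as the term, and both fractions 1 fit over 32. As the study's description gives no replicate term, the fit without a block came first. Replicate numbers pair the samples: deviations from group means over 7660 genes correlated at r of 0.934 to 0.982 between same-numbered lysates of different strains, 0.849 to 0.963 between polysome libraries and 0.9 to 0.951 between the fractions of 1 lysate. No libraries held identical values. Alternatives were the block, DESeq2 1.42.0, RLE scaling, other filters, limma 3.58.1 on log2 (adjusted value + 1), and leaving out replicates. Scripts were tested on simulated data. Pairs of polysome ratios were tested by exact sign-flip tests.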

Additional observations from a re-analysis of the deposited data

Results flagged for a closer look

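The polysome ratio of each of the 10 mRNAs differed between replicate numbers, by the interaction of fraction and number with the lysate as block. This test was chosen after the data were seen, and 41.2% of all genes passed it. The edgeR adjusted p was 0.00187 for mcm-2, 7.73e-05 for mcm-3, 0.00354 for mcm-4, 1.51e-04 for mcm-5, 4.48e-06 for mcm-6 and 0.00574 for mcm-7. It was 8.69e-07 for pcn-1, 0.00274 for cdk-1, 9.60e-04 for cyb-1 and 4.66e-07 for cyb-3. The mean ratio was lower at numbers 3 and 4 than at numbers 1 and 2 for every gene but cdk-1, whose means were -0.53, -0.39, -0.79 and -0.52 at numbers 1 to 4. For cyb-3 they were -1.17, -1.104, -1.93 and -1.19, so number 4 lay close to number 1. Sperm marker mRNAs summed to 334 to 490 CPM on polysomes of number 3 and 513 to 608 CPM at number 4, against 46.5 to 105 CPM at number 1 and 31.7 to 87.7 CPM at number 2, and their part in the ratios was not tested.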

How the results depend on the processing

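Between mutants and WT, and between mutants, 0 of 10 members were called under every alternative except limma on the authors' replicate-adjusted values, which called 1 in delta-LOTUS lysates, 1 in delta-Tudor lysates and 1 on delta-LOTUS polysomes. The replicate block changed no call of a member between strains, in either fraction or in the interaction of strain and fraction. It did change the polysome against lysate counts, from 0 without the block to 9, 10, 10 and 10 in delta-LOTR-1, delta-LOTUS, delta-Tudor and WT. The block with RLE scaling, added after the data were seen, gave 10 in each, and limma on the adjusted values 10 in each. Over all genes limma called 8946, 8700, 8838 and 8235 in delta-LOTR-1, delta-LOTUS, delta-Tudor and WT, higher or lower. The block within numbers 1 and 2 alone gave 10, 9, 9 and 10, and within numbers 3 and 4 alone 10 in each. The block without 1 number gave 9 to 10 in delta-LOTR-1, delta-LOTUS and WT and 7 to 10 in delta-Tudor. RLE scaling moved the median polysome against lysate log2 change of all genes by -0.09 in delta-LOTR-1, -0.11 in delta-LOTUS, -0.10 in delta-Tudor and -0.11 in WT, and the adjusted values moved it by -0.28, -0.23, -0.26 and -0.26. The members' median relative to that of all genes was -1.09, -1.01, -0.97 and -1.12 with RLE and -1.31, -1.25, -1.24 and -1.36 with the adjusted values.

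The count of members whose polysome ratio differed by number was 9 without the block, 5 with DESeq2, 5 with RLE, 3 to 10 when 1 library or number was left out and 7 to 10 with the block when 1 number was left out. It was 5 without WT polysome replicate 3, delta-Tudor lysate replicate 3, delta-LOTR-1 lysate replicate 3 or delta-LOTUS lysate replicate 2, and 3 without replicate 1. The cause was not tested. Differences by number within each fraction were called for 10 of 10 under every alternative run.

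Over all genes the lysate calls in delta-LOTR-1, delta-LOTUS and delta-Tudor were 43, 23 and 12 without the block, 1246, 3277 and 2166 with it, 126, 183 and 136 by DESeq2 and 2010, 3696 and 3208 by limma on the adjusted values. On polysomes they were 34, 9 and 15 without the block, 97, 162 and 35 with it, 63, 44 and 33 by DESeq2 and 156, 839 and 108 by limma.

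Between strains, fits without the block left 95% intervals of the log2 change that reached -2.08 for cyb-3 on polysomes of delta-LOTR-1 against WT and 2.12 for mcm-6 on polysomes of delta-LOTUS against delta-LOTR-1, so those fits do not exclude differences within them. The blocked intervals in the lysates lay within -0.41 and 0.27 against WT and reached 0.42 between mutants (cyb-3, delta-LOTUS against delta-LOTR-1). Counts of members run over 10 genes chosen by name, and each genotype is 1 strain. The lowest count of a member in a library was 678 (mcm-5).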
